A study of Mus musculus with 53 samples.

Results

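Ubd encodes FAT10, a ubiquitin-like protein that marks other proteins for the proteasome, and in these arrays it lay on opposite sides of healthy tissue in the mouse tumors studied: higher in liver tumors than in healthy liver, and lower in T-cell acute lymphoblastic leukemia (T-ALL) than in healthy thymus. It is described here together with 9 genes of the pathway that makes and displays peptides on major histocompatibility complex (MHC) class I molecules: Psmb8, Psmb9, Psmb10, Tap1, Tap2, Tapbp, B2m, H2-K1 and H2-D1. These are 10 of the 19057 genes for which the array had a probe naming a single gene. Each gene was read from the probe with the highest mean signal over the arrays. The set was chosen by the measured tumor-to-healthy differences of Ubd in both tissues, which ran opposite ways, so the tumor-to-healthy differences of Ubd are given as a description with no test.

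Nearly all nucleated cells show the immune system what they are making. The proteasome cuts proteins into peptides, the TAP transporter pumps the peptides into the endoplasmic reticulum, tapasin holds the transporter next to empty class I molecules, and loaded class I molecules travel to the surface, where CD8 T cells read them. Interferon gamma is known to induce most of the genes of this route, including Ubd and the immunoproteasome subunits that take the place of the constitutive catalytic subunits, and tumor necrosis factor also induces Ubd. In the healthy mouse, the thymus is known as a site of strong Ubd expression, and the immunoproteasome is abundant in lymphoid tissue and scarce in resting hepatocytes.

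The samples were 21 liver tumors from 16 mice that carried Mad2f/f p53f/f Alb-Cre+ (called p53 f/f tumors), 8 liver tumors from 5 mice with Mad2f/f p53f/+ Alb-Cre+ (p53 f/+ tumors), 10 wild-type healthy livers, 9 T-ALLs with Mad2f/f p53f/f Lck-Cre+, and 5 wild-type healthy thymi. Mad2 is the spindle checkpoint gene Mad2l1, floxed on both alleles in every tumor, so no tumor with intact Mad2l1 stands beside them. Alb-Cre is active in hepatocytes and Lck-Cre in developing T cells, so other cells of the tumor piece keep the floxed genes. All mice had a B6-129Sv mixed background, 8 mice gave 2 liver tumors each, and ages are not given in the sources used here. RNA came from whole pieces of tissue, in which fewer cells of a type and less RNA per cell cannot be told apart. Liver tumor 12, a p53 f/f tumor, had no signal, which left 20 p53 f/f tumors from 15 mice and 52 arrays.

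Levels below are on the log2 scale after background correction and quantile normalization, within the 38 liver or the 14 thymic arrays unless stated otherwise, and a probe counted as detected on an array when its detection p-value was under 0.05. Probes differ in affinity, so levels are compared between samples and not between genes. Between 28.3% and 39.3% of the probes were detected on the liver tumor arrays and between 30.6% and 38.9% on those of healthy liver, and between 4.6% and 37.5% for T-ALL and 37.2% and 40.3% for thymus. The 28.3% was that of liver tumor 13, a dim p53 f/+ tumor. Its 95th percentile of signal was 428.1, against 1050.9 in the next dimmest liver tumor. T-ALL 5 was nearly blank (4.56% detected), and T-ALL 4 was dim, with a 95th percentile of signal of 299.5, so thymic differences and counts are given for 9 T-ALLs and for the 7 others. Healthy liver 1 stood apart: its summed signal of hepatocyte markers was 22400, against 63500 to 91700 in the other healthy livers, and its dendritic and class II markers summed to 50000, against 2450 to 13500. Mad2l1 was detected in 3 of 9 T-ALLs and 5 of 5 thymi and differed by -4.67 ± 0.34 on the log2 scale (limma, adjusted p = 3.17e-08), but its probe was above background on 20 of 20 p53 f/f arrays, 7 of 8 p53 f/+ arrays and 9 of 10 healthy livers, with a difference of 0.69 ± 0.28 between liver tumors and healthy liver (adjusted p = 0.0602). Its median was 7.62 in p53 f/f tumors and 6.44 in p53 f/+ tumors, against 6.70 in healthy livers, and p53 f/f minus p53 f/+ tumors was 1.45 ± 0.33 (adjusted p = 0.0328). Whether that probe lies in the deleted exons was not examined, and Trp53 is not analysed here. Hepatocyte markers Ttr, Apoa1 and Serpina1a were detected on every liver array, while the Alb probe was detected in 7 of 20 p53 f/f tumors and in no p53 f/+ tumor or healthy liver, and the T-cell markers Cd3e, Cd3d and Cd3g in 8 of 9 T-ALLs and in all thymi.

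The starts of most of these genes lie in the MHC region of chromosome 17, with B2m on chromosome 2 and Psmb10 on chromosome 8. Promoter windows, running 250 bases before to 50 bases after the start in RefSeq (GRCm38.p6), were found for 9 of the 10 genes, all but Tap2. They were searched on both strands for the interferon-stimulated response element (ISRE, GAAANNGAA) and the gamma-activated site (GAS, TTCNNNGAA), letters that interferon signaling is known to act through. They are shown for the genes whose levels the results turn on, 5′ to 3′ on the strand of each gene, with the matches, and the longest run common to the H2-K1 and H2-D1 windows, in capitals: Ubd (chr17:37193642-37193941, plus strand), Psmb8 (chr17:34197945-34198244, plus), Tap1 (chr17:34187306-34187605, plus), B2m (chr2:122147437-122147736, plus), H2-K1 (chr17:34000298-34000597, minus) and H2-D1 (chr17:35262844-35263143, plus).
Ubd: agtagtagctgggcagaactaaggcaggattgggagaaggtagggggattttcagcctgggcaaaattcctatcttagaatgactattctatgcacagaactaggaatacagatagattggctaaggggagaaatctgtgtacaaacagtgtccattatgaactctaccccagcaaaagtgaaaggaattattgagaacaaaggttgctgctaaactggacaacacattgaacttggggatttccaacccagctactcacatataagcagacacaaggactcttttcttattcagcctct
Psmb8: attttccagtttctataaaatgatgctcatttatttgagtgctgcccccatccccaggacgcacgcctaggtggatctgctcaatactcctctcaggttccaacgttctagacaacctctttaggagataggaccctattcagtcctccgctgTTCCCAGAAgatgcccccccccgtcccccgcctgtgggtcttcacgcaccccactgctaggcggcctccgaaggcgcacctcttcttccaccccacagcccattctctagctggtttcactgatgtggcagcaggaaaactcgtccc
Tap1: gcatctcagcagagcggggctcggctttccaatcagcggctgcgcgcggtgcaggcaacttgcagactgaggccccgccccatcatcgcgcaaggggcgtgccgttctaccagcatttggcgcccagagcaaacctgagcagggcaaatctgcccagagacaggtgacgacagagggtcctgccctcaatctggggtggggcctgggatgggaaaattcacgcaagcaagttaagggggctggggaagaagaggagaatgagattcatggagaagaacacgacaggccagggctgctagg
B2m: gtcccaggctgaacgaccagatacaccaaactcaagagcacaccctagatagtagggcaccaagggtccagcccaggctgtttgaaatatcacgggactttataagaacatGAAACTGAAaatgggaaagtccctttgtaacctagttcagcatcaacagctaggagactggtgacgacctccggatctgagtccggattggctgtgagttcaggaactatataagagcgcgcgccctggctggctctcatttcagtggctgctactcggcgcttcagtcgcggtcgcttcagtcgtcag
H2-K1: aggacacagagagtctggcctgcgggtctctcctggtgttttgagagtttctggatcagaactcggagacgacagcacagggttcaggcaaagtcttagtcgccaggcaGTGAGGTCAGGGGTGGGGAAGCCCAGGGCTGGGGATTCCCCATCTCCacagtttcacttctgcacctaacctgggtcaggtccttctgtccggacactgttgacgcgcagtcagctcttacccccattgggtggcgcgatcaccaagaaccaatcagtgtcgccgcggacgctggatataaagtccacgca
H2-D1: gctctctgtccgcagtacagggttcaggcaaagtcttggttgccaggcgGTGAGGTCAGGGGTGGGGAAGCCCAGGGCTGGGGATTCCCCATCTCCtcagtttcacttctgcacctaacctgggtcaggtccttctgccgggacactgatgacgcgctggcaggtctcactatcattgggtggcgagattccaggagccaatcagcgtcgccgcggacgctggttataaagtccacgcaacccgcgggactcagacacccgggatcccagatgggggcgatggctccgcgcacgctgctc

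Psmb8 held a GAS match 97 bases before the start, which reads as the motif on both strands. B2m held an ISRE match 139 bases before the start. Of the 9 genes with a window, the other 7 had no match, with Ubd, Tap1, H2-K1 and H2-D1 among them. Only these exact letters were searched, and only in the 300 bases. A window with no match may therefore still hold an interferon response element with other letters. H2-K1, for which the first of 2 windows is shown, and H2-D1 have a run of 47 bases in common, which begins 141 bases before the start of H2-K1 and 201 before that of H2-D1. Tap1 and Psmb9 start 226 bases apart on opposite strands, so that 275 of the 300 bases of their windows are the same DNA. Of all 32817 mouse windows of this length, 8.55% held the ISRE letters and 8.29% the GAS letters.

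Ubd spanned a wide range among liver tumors and was uniformly low in most healthy livers. It was 6.10 at the lowest, 11.07 at the median and 13.88 at the highest in 20 p53 f/f tumors, and 7.00, 11.07 and 11.94 in 8 p53 f/+ tumors, against 5.07, 5.41 and 8.38 in 10 healthy livers. The underlying signals spanned 63.0 to 21908.2 (p53 f/f) and 69.4 to 3334.6 (p53 f/+), against 9.8 to 124.4 in healthy livers. The ranges overlapped: 23 of 28 tumors lay above every healthy liver, and 28 of 28 above the healthy mean. Ubd was detected in all 28 tumors and in 4 of 10 healthy livers. The healthy liver with the most Ubd, at 8.38, was healthy liver 5, and the others lay between 5.07 and 6.81. The mean difference was 4.76 ± 0.69 (SE) on the log2 scale, from means of 10.61 ± 2.10 in tumors and 5.86 ± 1.05 in healthy livers (SD, n = 28 and 10). Without healthy liver 1 it was 4.81. With each undetected healthy liver set to the lowest signal among detected probes of its array, Ubd was at least 22.5-fold higher in the tumors.

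In the thymic samples the picture was turned round. Ubd was 12.29, 12.41, 12.34, 12.14 and 12.16 in the 5 healthy thymi, a spread of 0.12 (SD). The 9 T-ALLs had 8.28, 6.97, 6.86, 4.97, 4.64, 5.73, 5.71, 6.59 and 5.68 in the order T-ALL 1 to T-ALL 9. Each T-ALL value therefore lay below every thymus, a separation that the values of 10.8% of all genes tested also had. With the 7 T-ALLs the separation held as well, beside 16.8% of all genes. The mean difference was -6.11 ± 0.52 for 9 T-ALLs and -5.79 ± 0.40 for 7. Ubd was detected in those 7 T-ALLs and not in T-ALL 4 or 5, and was 52.8-fold lower than in thymus in the 7 by their measured means. With T-ALL 4 and 5 set to the lowest signal among detected probes of their arrays, it was 39.1-fold lower in the 9. On T-ALL 5 the lowest level of any detected probe was 10.99, and only 4.56% of probes were detected. Its Ubd value therefore does not place it against the thymi.

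**Figure D1:**
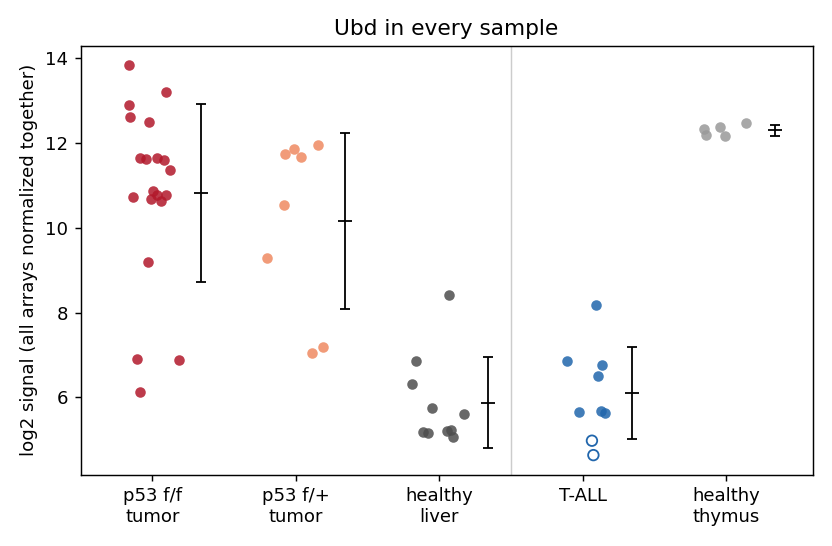
Log2 level of Ubd in each sample (vertical axis, all 52 arrays normalized together) in p53 f/f liver tumors, p53 f/+ liver tumors, healthy liver, T-ALL and healthy thymus; open circles are T-ALL 4 and T-ALL 5, and black bars are the mean ± SD of each group. The liver tumors spread from the level of healthy liver to past that of healthy thymus, with 5 p53 f/f tumors above every thymus, and the T-ALLs lie at the level of healthy liver.

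Over all 5 groups normalized together, mean Ubd ran in the order healthy thymus (12.30 ± 0.13), p53 f/f tumor (10.82 ± 2.10), p53 f/+ tumor (10.16 ± 2.08), T-ALL (6.10 ± 1.09) and healthy liver (5.88 ± 1.07; SD). Each pair of neighbours in this order had overlapping ranges. The order separates thymus and most liver tumors from T-ALL and healthy liver. It also separates thymus (12.16 to 12.47) from the p53 f/+ tumors (7.04 to 11.95), but not from the p53 f/f tumors. The liver tumor difference minus the T-ALL difference was 10.99 ± 1.21 on the log2 scale.

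Tumors of 1 mouse differed widely in Ubd. In the 8 mice with 2 tumors, the tumor with more Ubd and the tumor with less had 12.92 and 6.86, 11.63 and 11.33, 13.88 and 12.52, 10.74 and 9.14, and 10.72 and 6.85 in p53 f/f mice, and 10.48 and 7.15, 11.94 and 11.74, and 11.84 and 7.00 in p53 f/+ mice. The median difference within a mouse was 2.46 (0.21 to 6.06). For the 9 other genes the median difference within a mouse ran from 0.30 for B2m to 1.10 for Psmb8. The tumor with more Ubd also had more Psmb9 and more B2m in 7 of 8 mice, more Tap1, H2-K1 and H2-D1 in 6, and more Psmb8, Psmb10, Tap2 and Tapbp in 5. These counts were not tested and not set against all genes. The smallest Ubd differences, 0.21 and 0.29, hardly set a direction.

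The question for the other genes of the route was whether they followed Ubd. In liver, Psmb8, Tap2 and H2-D1 rose in tumors, and the remaining 6 genes did not pass the test. That is 3 of 9 higher and 0 lower, where 14.7% of all 11517 genes tested were called higher and 14.3% lower (limma, adjusted p under 0.05 over all genes). The median log2 difference of the 9 genes was 0.40, against -0.01 over all genes.

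Psmb8 encodes the immunoproteasome subunit LMP7, which carries the chymotrypsin-like activity in place of Psmb5. It was 9.28 at the lowest, 11.47 at the median and 12.65 at the highest in the 28 tumors, against 6.53, 10.04 and 11.28 in healthy livers. The groups overlapped, with 15 of 28 tumors above every healthy liver. The difference was 1.45 ± 0.40 (SE, 2.73-fold, adjusted p = 0.00577), and a second Psmb8 probe gave 1.48 (adjusted p = 0.00157). Psmb9 (LMP2), which replaces Psmb6, was 9.64 ± 1.17 in tumors and 9.08 ± 0.86 in healthy livers (SD), a difference of 0.55 ± 0.40 (adjusted p = 0.31). Psmb10 (MECL-1), which replaces Psmb7, was 11.37 ± 0.43 in tumors and 11.18 ± 0.32 in healthy livers, a difference of 0.20 ± 0.16 (adjusted p = 0.357).

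Tap1 and Tap2 encode the paired chains of the peptide transporter. Tap2 was 8.61, 10.49 and 11.65 in tumors at the lowest, median and highest, against 8.4, 9.77 and 10.36 in healthy livers, and 16 of 28 tumors lay above every healthy liver. Its difference was 0.80 ± 0.28 (adjusted p = 0.0301). Tap1 averaged 7.59 ± 0.77 in tumors and 7.37 ± 0.51 in healthy livers, a difference of 0.22 ± 0.27 (adjusted p = 0.564). Tapbp, tapasin, averaged 8.75 ± 0.61 in tumors and 8.33 ± 1.20 in healthy livers (difference 0.40 ± 0.29, adjusted p = 0.305).

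H2-D1 and H2-K1 encode the classical class I heavy chains of the mouse, and B2m the light chain that both need to reach the surface. H2-D1 was 11.83, 13.46 and 14.06 in tumors, against 11.14, 12.80 and 13.34 in healthy livers, with 18 of 28 tumors above every healthy liver. Its difference was 0.65 ± 0.20 (adjusted p = 0.0144), and further H2-D1 probes gave 0.69 (adjusted p = 0.0251) and 0.94 (adjusted p = 0.00142). H2-K1 averaged 9.17 ± 0.95 in tumors and 9.17 ± 1.01 in healthy livers, a difference of -0.02 ± 0.34 (adjusted p = 0.98) that turned to 0.32 when arrays were scaled by their medians. B2m averaged 14.81 ± 0.34 in tumors and 14.66 ± 0.23 in healthy livers, a difference of 0.15 ± 0.13 (adjusted p = 0.399), but on 21 of 38 liver arrays it was less than 1 log2 unit under the top of the scale, where the scale compresses differences. Class I heavy chain genes are near copies of each other, so a probe may also read a relative, and the split between H2-D1 and H2-K1 is uncertain.

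**Figure D2:**
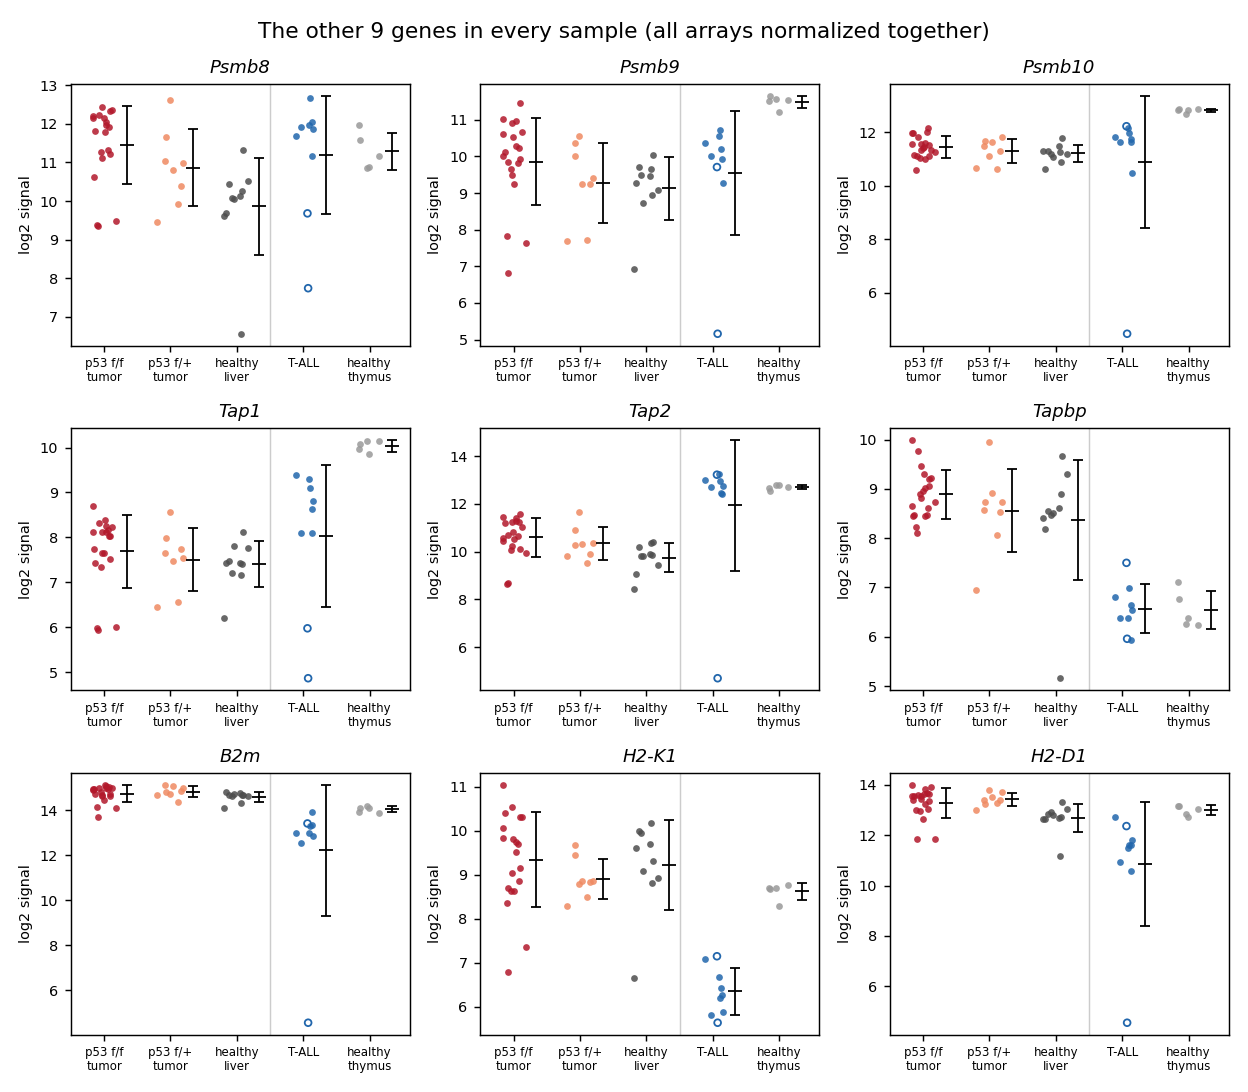
Log2 level of each of the other 9 genes in each sample (vertical axes, all 52 arrays normalized together), with groups, open circles and bars as for Ubd. Psmb9, Psmb10, Tap1, H2-K1 and H2-D1 are lower than in every thymus in every T-ALL except the nearly blank T-ALL 5, which cannot be placed, while the liver groups overlap for every gene.

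The liver calls rested on few samples at the edges. Without healthy liver 1, Tap2 had an adjusted p of 0.0592, while Psmb8 (0.00625) and H2-D1 (0.0139) stayed under the threshold. Healthy liver 5 had the lowest Psmb8 (6.53), Tapbp (5.16) and H2-D1 (11.14) of the healthy livers beside the highest Ubd. Without healthy livers 1 and 5, Psmb8 alone was called, beside 2310 of all 11517 genes higher and 2275 lower, and H2-D1 had an adjusted p of 0.0609. The position labels place 9 of the p53 f/f tumors on chips B and C, which hold no healthy liver. Those 9 averaged 11.52 in Ubd, 11.87 in Psmb8 and 10.42 in Psmb9, against 10.22, 11.09 and 9.30 in the 11 p53 f/f tumors on chips D, E and F. Without those 9 tumors, 0 of the 9 genes were called by limma (Psmb8, adjusted p = 0.0513), with 3 at an unadjusted p under 0.05. Of all 11517 genes, 1180 were then called higher and 944 lower. On chip G, the only chip with tumors and healthy livers, 2 p53 f/+ tumors minus 3 healthy livers (healthy liver 1 among them) gave 3.68 for Ubd, 1.35 for Psmb8, 1.24 for Tap2, 0.84 for H2-D1 and 0.04 for B2m. With chip as a fixed effect 0 were called, 0 had an unadjusted p under 0.05, and Psmb8 differed by 1.77 (limma, adjusted p = 0.692). That fit called only 7 of all 11517 genes higher and 2 lower, so its count says little about these genes. The part of the chip in these differences was not tested beyond these values.

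The liver tumors came from mice with both or with a single floxed Trp53 allele, and 0 of the 10 genes passed the limma test between p53 f/f and p53 f/+ tumors, in a comparison where 0.46% of all genes were called. The unadjusted limma p was under 0.05 for 0 of 10 as well. Ubd differed by 0.67 ± 0.82 on the log2 scale (adjusted p = 0.764), Psmb8 by 0.65 ± 0.47 (adjusted p = 0.554) and B2m by -0.10 ± 0.15 (adjusted p = 0.831). For Ubd the sign differed between chips: on chip D, p53 f/f minus p53 f/+ tumors was 3.17 (2 and 3 tumors), and on chip E it was -1.55 (3 and 3 tumors).

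In T-ALL, most of the route lay below healthy thymus, and how many genes passed the test depended on T-ALL 4 and 5. H2-K1 was the only gene called with all 9 T-ALLs, 1 of 9 lower and 0 higher, where 8.87% of 10275 genes were called lower and 1.44% higher. With the 7 T-ALLs, 6 of 9 were lower and 0 higher, where 25.8% of all genes were lower and 20.3% higher. The 5 thymi lay on a chip that held no T-ALL, so chip and group cannot be told apart here. The median log2 difference of the 9 genes was -1.78 with 9 T-ALLs and -1.04 with 7, against -0.32 and -0.01 over all genes.

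H2-K1 was 5.87 at the lowest, 6.36 at the median and 7.18 at the highest in the 7 T-ALLs, 7.25 in T-ALL 4 and 5.70 in T-ALL 5, against 8.82, 8.90, 8.81, 8.41 and 8.79 in the thymi. The 7 T-ALLs and T-ALL 4 lay below all 5 thymi, and T-ALL 5, where H2-K1 was not detected, cannot be placed at this level. The difference was -2.31 ± 0.34 with 9 T-ALLs (adjusted p = 0.00012) and -2.38 ± 0.24 with 7 (adjusted p = 2.44e-06), although a second H2-K1 probe gave -0.75 with 9 T-ALLs (adjusted p = 0.47). H2-D1 was 10.72, 11.65 and 12.63 in the 7 T-ALLs, against 13.06, 12.94, 12.74, 12.64 and 13.06 in the thymi. Its difference was -2.01 ± 1.05 with 9 T-ALLs (adjusted p = 0.298) and -1.31 ± 0.25 with 7 (adjusted p = 0.00078). B2m, the shared light chain, was 12.50, 12.89 and 13.80 in the 7 T-ALLs, against 13.81, 13.78, 14.05, 13.96 and 13.98 in the thymi, and the highest T-ALL lay just above the lowest thymus. It differed by -1.78 ± 1.21 with 9 T-ALLs (adjusted p = 0.45) and -0.87 ± 0.17 with 7 (adjusted p = 0.00111).

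The immunosubunits did not move as a block. Psmb9 was 9.43, 10.35 and 10.85 in the 7 T-ALLs, 9.86 in T-ALL 4 and 5.17 in T-ALL 5, against 11.56, 11.60, 11.62, 11.29 and 11.68 in the thymi. It fell by 1.26 ± 0.21 with 7 T-ALLs (adjusted p = 0.000214), and its difference with 9 was -1.87 ± 0.78 (adjusted p = 0.167). Psmb10 was 10.60, 11.78 and 12.13 in the 7 T-ALLs, against 12.71, 12.75, 12.61, 12.75 and 12.76 in the thymi, with differences of -1.04 ± 0.21 for 7 (adjusted p = 0.000962) and -1.79 ± 1.05 for 9 (adjusted p = 0.367). Psmb8 was 11.26, 11.92 and 12.59 in the 7 T-ALLs, against 11.98, 11.25, 10.97, 11.00 and 11.62 in the thymi. Its groups overlapped, and its difference was 0.55 ± 0.22 with 7 (adjusted p = 0.0517) and -0.13 with 9 (adjusted p = 0.94).

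Of the transporter chains, Tap1 passed the test in the 7 T-ALLs and Tap2 did not. Tap1 was 8.20, 8.95 and 9.54 in the 7 T-ALLs and 6.05 in T-ALL 4, against 10.11, 10.30, 10.30, 10.01 and 10.22 in the thymi. It fell by 1.29 ± 0.24 with 7 T-ALLs (adjusted p = 0.000629), and its difference with 9 was -2.04 ± 0.70 (adjusted p = 0.0813). Tap2 was 12.36, 12.68 and 13.16 in the 7 T-ALLs, against 12.60, 12.64, 12.70, 12.71 and 12.49 in the thymi, a difference of 0.08 ± 0.13 with 7 (adjusted p = 0.632) and -0.76 ± 1.15 with 9 (adjusted p = 0.753). Tapbp differed by -0.03 ± 0.23 with 7 T-ALLs (adjusted p = 0.936) and by 0.02 ± 0.32 with 9 (adjusted p = 0.98). In Psmb9, Psmb10, Tap1, H2-K1 and, by a narrow margin, H2-D1, each of the 7 T-ALLs lay below every thymus, 5 of 9 genes, beside 16.8% of all genes. T-ALL 4 did so as well. T-ALL 5 is nearly blank and cannot be placed for any of these genes. Even B2m read 4.57 on that array, against 12.50 to 13.80 in the other T-ALLs.

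Whether a gene changed differently in liver and thymus was tested as the liver tumor difference minus the T-ALL difference, with all arrays normalized together. The value was 2.77 for H2-D1 (limma, adjusted p = 0.0056), 2.47 for Psmb9 (0.0272), 2.23 for H2-K1 (0.00445), 2.22 for Tap1 (0.00884) and 2.10 for Psmb10 (0.0305). These 5 of 9 genes thus stood higher in liver tumors relative to liver than in T-ALL relative to thymus, where 13.7% of 12276 genes did and 5.29% went the other way, and the median over all genes was 0.20. B2m (1.98, adjusted p = 0.0771), Tap2 (1.55, 0.219), Psmb8 (1.5, 0.179) and Tapbp (0.37, 0.642) did not pass. Without T-ALL 4 and 5, B2m passed as well, with a value of 1.06 (adjusted p = 0.000322).

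**Figure D3:**
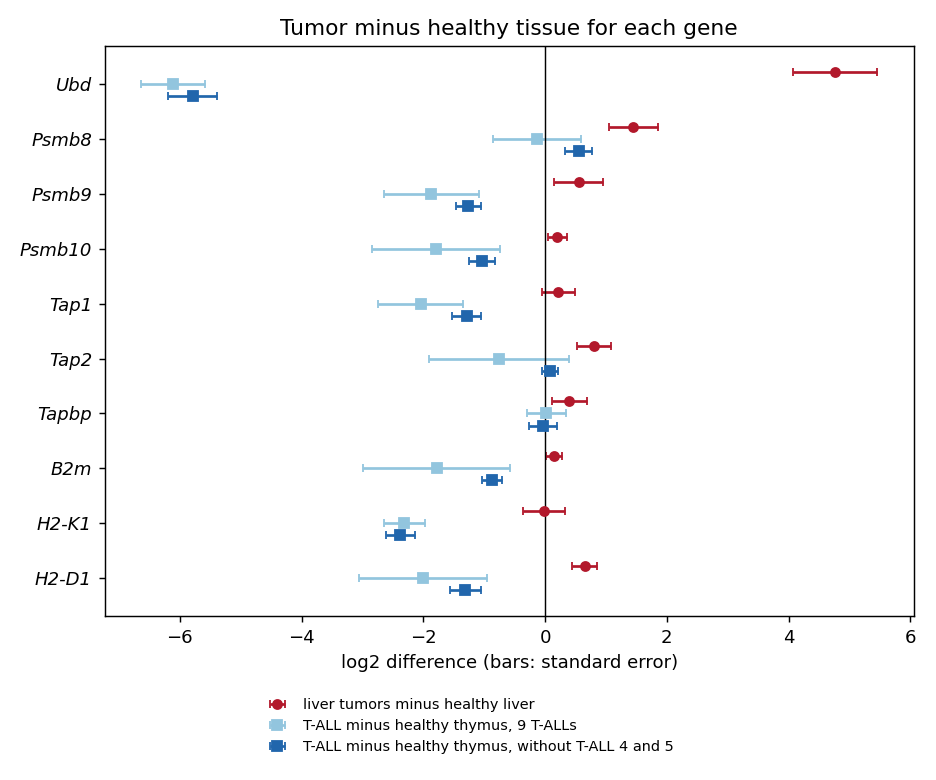
Log2 difference between tumor and healthy tissue (horizontal axis) for each of the 10 genes, for liver tumors, 9 T-ALLs and the 7 T-ALLs without T-ALL 4 and 5; dots are the fitted differences and bars their SE. Ubd has the widest gap between liver (4.76) and T-ALL (-6.11), Psmb8 is above 0 in liver, and H2-K1 is near 0 in liver (-0.02) and below 0 in T-ALL (-2.31).

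The inducible subunits can be set against the constitutive subunits whose places they take. In liver tumors Psmb8 differed by 1.45 and its partner Psmb5 by 0.45 ± 0.17 (adjusted p = 0.0452), so that Psmb8 moved 1.01 further. Psmb9 moved 0.47 further than Psmb6 (0.09, adjusted p = 0.643), and Psmb10 moved -0.09 relative to Psmb7 (0.28, adjusted p = 0.234). In the 7 T-ALLs the partners Psmb5 (0.01, adjusted p = 0.977), Psmb6 (0.26, 0.336) and Psmb7 (0.43, 0.0575) did not pass the test. There Psmb9 moved -1.52 relative to Psmb6 and Psmb10 -1.48 relative to Psmb7, while Psmb8 moved 0.54 relative to Psmb5. The ratios of Psmb9 and Psmb10 were lower in 7 of 7 T-ALLs than in every thymus, as Psmb9 and Psmb10 were alone. Of single genes, 16.8% were lower in each of the 7 than in every thymus, and no such share was obtained for ratios. With 9 T-ALLs the relative differences were -1.33 for Psmb9, -1.12 for Psmb10 and 0.59 for Psmb8, and the partners Psmb5 (-0.72), Psmb6 (-0.55) and Psmb7 (-0.67) did not pass. The thymoproteasome subunit Psmb11, known from cortical thymic epithelium, was detected in 0 of 9 T-ALLs and in 5 of 5 thymi and fell by 2.37 ± 0.20 with 9 T-ALLs (adjusted p = 2.23e-07) (-2.42 with 7, adjusted p = 2.54e-07).

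**Figure D4:**
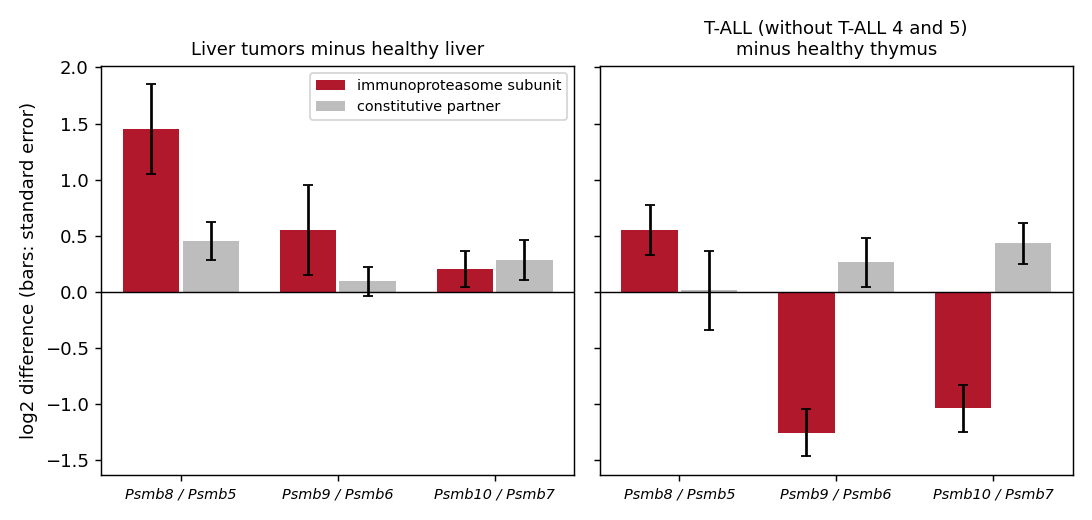
Log2 difference between tumor and healthy tissue (vertical axis) of each immunoproteasome subunit and of its constitutive partner, in liver tumors and in the 7 T-ALLs; bars show the difference and lines its SE. In liver the widest gap is between Psmb8 (1.45) and Psmb5 (0.45); in T-ALL Psmb9 (-1.26) and Psmb10 (-1.04) are below 0 and Psmb6 (0.26) and Psmb7 (0.43) are not.

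Among the liver tumors, which the choice of genes did not use one against another, most genes of the route followed Ubd. Over 20 mice, with tumors of a mouse averaged, 8 of 9 genes correlated with Ubd (permutation test of r with 100000 resamples, two-sided, adjusted over the 9 relations). Of 11507 other genes, 802 had a higher r with Ubd than Tapbp, the weakest of the 8. Psmb9 had r = 0.82 (p = 2e-05, adjusted p = 0.00018) and Spearman's rho = 0.65 (p = 0.00251, adjusted p = 0.0226), and r = 0.63 without the 2 mice farthest from the median of Ubd. Tap1 had r = 0.75 (p = 0.0002, adjusted p = 0.0009) and rho = 0.59 (adjusted p = 0.0326), and r = 0.60 without those mice. H2-K1, which had not passed the test between tumors and healthy livers, had r = 0.73 (p = 0.0004, adjusted p = 0.0012), rho = 0.51 (adjusted p = 0.0463) and r = 0.49 without them. Psmb8 had r = 0.68 (p = 0.00113, adjusted p = 0.00203), rho = 0.56 (adjusted p = 0.0363) and r = 0.47 without them.

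For the remaining genes, the permutation p was not under 0.05 without the 2 extreme mice. Tap2 (r = 0.73, adjusted p = 0.00142, rho = 0.50), H2-D1 (0.63, 0.00634, rho = 0.41), B2m (0.62, 0.00827, rho = 0.39) and Tapbp (0.49, 0.0388, rho = 0.41) had r of 0.40, 0.29, 0.40 and 0.41 without them, and the permutation p was then above 0.05 for each. Psmb10 had r = 0.36 (permutation p = 0.116), and r = 0.45 (p = 0.0614) without them. With values centred within each chip, all 9 genes passed by r, which ran from 0.51 to 0.79. Without the tumors on chips B and C (14 mice), 7 of 9 passed by r, all but Tapbp (0.36) and Psmb10 (0.51). By rho, 5 of 9 passed over the 20 mice, 2 of 9 in the 15 p53 f/f mice and 0 of 9 without chips B and C (1 at an unadjusted permutation p under 0.05, lowest adjusted p = 0.18). These values have a context among all genes: of 11507 other genes, 7 had a higher r with Ubd than Psmb9, 42 than Tap1, 64 than Tap2 and H2-K1, 147 than Psmb8, 238 than H2-D1, 264 than B2m, 802 than Tapbp and 1658 than Psmb10. No such ranking is given within chips or without chips B and C.

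**Figure D5:**
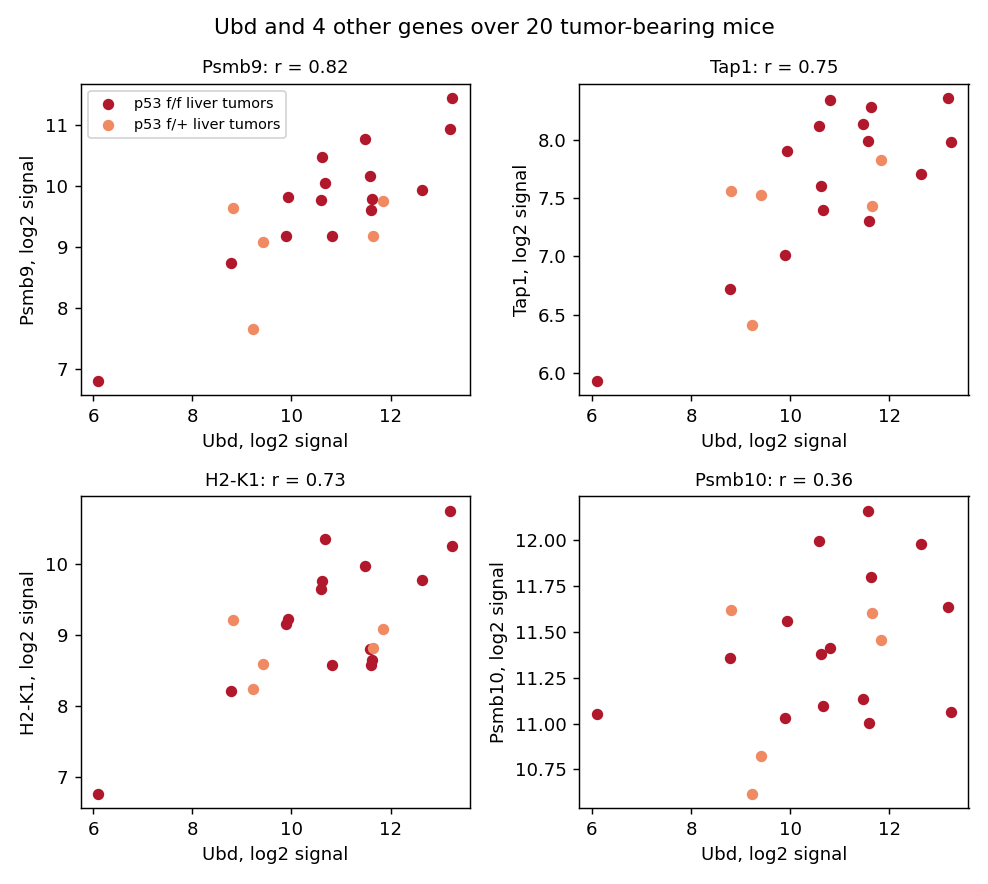
Log2 level of Psmb9, Tap1, H2-K1 and Psmb10 (vertical axes) against that of Ubd (horizontal axes) in each of 20 mice with liver tumors, tumors of a mouse averaged; colors mark p53 f/f and p53 f/+ mice. Psmb9 (r = 0.82), Tap1 (r = 0.75) and H2-K1 (r = 0.73) rise with Ubd, and Psmb10 (r = 0.36) less so.

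Among the 7 T-ALLs, 0 of 9 genes correlated with Ubd after adjustment, and 0 of 9 had an unadjusted p under 0.05 for r (exact permutation test over 5040 orders). Ubd ran from 5.68 to 8.28 there, its low end near the lowest detected signals, which averaged 5.53. With 7 arrays and values near that floor, the test cannot show that a relation is absent. The smallest r was that of B2m (0.18). The largest r was that of Tap1 (0.74, p = 0.0573, rho = 0.64). By rank, 2 of 9 had an unadjusted exact p under 0.05: Psmb10 (rho = 0.89, p = 0.0123, adjusted p = 0.111) and H2-K1 (rho = 0.82, p = 0.0341, adjusted p = 0.154). With 9 T-ALLs, Tap1 came nearest (r = 0.81, exact p = 0.00588, adjusted p = 0.0529).

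The genes most like Ubd over the 20 mice were of another kind. Gstm1, a glutathione transferase, had r = 0.89 with Ubd, Nqo1, a quinone reductase, 0.86, Tlr2, a receptor for bacterial lipoproteins, 0.85, Creg1, a lysosomal glycoprotein, 0.85, and Cbr3, a carbonyl reductase, 0.85. Centred within chips, r was 0.91 for Gstm1, 0.87 for Nqo1 and Tlr2, 0.83 for Creg1 and 0.85 for Cbr3. As groups, liver tumors were higher than healthy livers in Cbr3 (5.35 ± 0.71, adjusted p = 6e-07), Nqo1 (1.68 ± 0.48, adjusted p = 0.00822) and Tlr2 (1.18 ± 0.24, adjusted p = 0.000272), while Gstm1 (0.65, adjusted p = 0.144) and Creg1 (0.86, adjusted p = 0.0547) did not pass. In T-ALL, Cbr3 was lower than in thymus with 9 T-ALLs (-1.91, adjusted p = 0.0375) and with 7 (adjusted p = 0.0024). Creg1 differed by 1.13 with 9 (adjusted p = 0.155) and was higher with 7 (1.64, adjusted p = 1.5e-05), and Gstm1 (0.15), Nqo1 (0.05) and Tlr2 (0.28) did not pass with 9 or with 7.

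Few other genes of the same route passed the test in liver. Psme1, a subunit of the PA28 activator that caps the immunoproteasome, rose by 0.54 ± 0.12 (adjusted p = 0.00134), while its partner Psme2 (0.40, adjusted p = 0.364), Psme3 and the assembly chaperone Pomp did not pass, 1 of 4 in all. Of 7 tested genes of peptide loading and trimming, the oxidoreductase Pdia3 (ERp57) rose by 0.61 (adjusted p = 0.0019) and the peptidase Ide fell by 0.34 (adjusted p = 0.0478). Of 15 other class I heavy chain genes, H2-M2 rose by 1.97 ± 0.58 (adjusted p = 0.0098) and the iron regulator Hfe fell by 0.62 ± 0.19 (adjusted p = 0.0139). Of 6 genes of Ubd conjugation and turnover, 0 were called by limma and 2 had an unadjusted p under 0.05, and the list held the activating enzyme Uba6 (0.24, adjusted p = 0.658) and its partner Ube2z (0.02). The percentages for all genes, 14.7 higher and 14.3 lower, hold for these lists too.

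Of the upstream genes in liver, those called higher are read against the 14.7% of all genes called higher, and no test compared the lists. Of 11 tested genes of interferon gamma signaling, the receptor chain Ifngr1 rose by 1.31 ± 0.31 (adjusted p = 0.00147) and Stat2 fell by 0.76 (adjusted p = 0.0107), while the transcription factor Irf1 (-0.17, adjusted p = 0.533) and Nlrc5, a transactivator of class I genes (-0.21, adjusted p = 0.573), did not pass. Of 10 genes of tumor necrosis factor and NF-kB signaling, 5 rose and 0 fell: the NF-kB subunit Relb (1.82 ± 0.27, adjusted p = 5.09e-06), the chemokine Cxcl1 (1.51, adjusted p = 0.000642), the inhibitor Nfkbie (1.25, adjusted p = 0.00586), the deubiquitinase Tnfaip3 (0.64, adjusted p = 0.0102) and the chemokine Ccl2 (0.63, adjusted p = 0.0365). Tnf itself differed by 0.04. Of 23 interferon-stimulated genes, 6 rose and 0 fell, led by Cxcl10 (1.5, adjusted p = 0.00676), Ifit2 (1.39, adjusted p = 0.00285), Oasl2 (1.39, adjusted p = 0.0012) and Usp18 (1.19, adjusted p = 0.00197). The list medians were 0.24 for interferon gamma signaling, 0.53 for tumor necrosis factor and NF-kB signaling and 0.23 for interferon-stimulated genes, against -0.01 over all genes.

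In T-ALL some of the upstream genes were lower, beside 8.87% of all genes lower with 9 T-ALLs and 25.8% with 7. Nlrc5 fell by 3.15 ± 0.56 with 9 T-ALLs (adjusted p = 0.000905) (-2.95 with 7, adjusted p = 0.000554), and Ciita, its class II relative, fell by 3.32 ± 0.34 with 9 (adjusted p = 2.18e-06) (-3.31 with 7, adjusted p = 1.17e-06). These were 2 of 13 tested genes of interferon gamma signaling with 9 T-ALLs, and 7 of 13 were lower with 7, including Irf1 (-1.23, adjusted p = 7.2e-05) and the receptor chain Ifngr2 (-1.61). Of 9 genes of tumor necrosis factor and NF-kB signaling, 3 were lower with 9 T-ALLs and 6 with 7, with Relb at -2.46 with 9 (adjusted p = 6.27e-05) and -2.50 with 7 (adjusted p = 1.78e-06). Of 22 interferon-stimulated genes, 9 were lower with 9 T-ALLs, led by Oasl2 (-3.09, adjusted p = 2.49e-05), Gbp2 (-2.90, adjusted p = 0.00017) and Cxcl10 (-2.84, adjusted p = 4.05e-06), and with 7 T-ALLs 16 were lower and 1, Mx2 (2.29, adjusted p = 0.00865), was higher. Of 14 other class I heavy chain genes, 6 were lower with 9 T-ALLs and 7 with 7, among them with 9 H2-Q6 (-2.46, adjusted p = 5.64e-05), H2-Q7 (-2.56) and H2-T23 (-2.75, adjusted p = 0.0427), while H2-Bl was higher (2.80, adjusted p = 0.036; 3.46 with 7, adjusted p = 0.00287). With 7 T-ALLs, Psme2 (0.89, adjusted p = 0.0075) and Psme3 (0.49, adjusted p = 0.0063) were higher, and the chaperone Calr rose by 1.89 (adjusted p = 0.00145).

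Markers of other cells also differed between tumors and healthy tissue. In liver tumors, where 14.7% of all genes were higher, 6 of 11 macrophage and Kupffer cell, 4 of 7 dendritic and class II, and 4 of 5 neutrophil markers were called higher and none lower. In the first list, Clec4f (-1.71), Vsig4 (-0.98), Marco (0.02), Csf1r (0.15) and Adgre1 (0.59) did not pass. In the second, Cd74, H2-Aa, H2-Ab1 and Cd83 passed, and Flt3 (-0.08), Clec9a (-0.20) and H2-Eb1 (1.14) did not. Of T and NK cell markers 0 of 7 were called, and of hepatocyte markers 0 of 4 (limma, 1 and 0 of them at an unadjusted p under 0.05). The dendritic and class II markers (10 probes, Itgax and Ccr7 detected on no liver array) had summed signals of 1890 to 53300 (p53 f/f) and 3690 to 25400 (p53 f/+), against 2450 to 50000 in healthy livers, the top of that range being healthy liver 1. Over the 20 mice, Ubd followed the mean of the dendritic and class II markers (r = 0.82, permutation p = 4e-05, adjusted p = 0.00066 over 33 relations, rho = 0.72), that of interferon-stimulated genes (r = 0.76, adjusted p = 0.00121, rho = 0.72) and that of interferon gamma signaling (r = 0.78, adjusted p = 0.00132, rho = 0.54). Without the 2 mice farthest from the median of Ubd these were 0.75, 0.69 and 0.59, and centred within chips 0.79, 0.80 and 0.73. Ubd also followed the T and NK cell markers (r = 0.63, adjusted p = 0.0161, rho = 0.56), while the macrophage markers (r = 0.48, adjusted p = 0.0569) and neutrophil markers (r = 0.26, adjusted p = 0.322) did not pass. By rho, Ubd followed the dendritic and class II markers and the interferon-stimulated genes (adjusted p = 0.00594 for each) and none of the other lists. H2-K1 followed the mean of 4 hepatocyte markers (r = 0.82, permutation p = 2e-05, adjusted p = 0.00066, rho = 0.87), with r = 0.86 without its 2 extreme mice and 0.54 within chips. These 4 include the Alb probe, which was detected in only 7 of 20 p53 f/f tumors and 0 of 8 p53 f/+ tumors. How far that probe weighed in the mean was not tested. H2-K1 also followed interferon gamma signaling (r = 0.75, adjusted p = 0.00181), the dendritic and class II markers (r = 0.73, adjusted p = 0.00181) and interferon-stimulated genes (r = 0.54, adjusted p = 0.0325), which had r of 0.81, 0.77 and 0.78 within chips and 0.39, 0.43 and 0.15 without the 2 mice. The part of these cells in the levels of Ubd and of class I genes in liver was not tested.

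In T-ALL, 8 of 8 markers of cortical and 5 of 8 of medullary thymic epithelium, 7 of 7 dendritic and class II and 5 of 5 neutrophil markers were lower with 9 T-ALLs, where 8.87% of all genes were. With 7 T-ALLs, where 25.8% of all genes were lower, 7 of 8 medullary markers were, and the other counts did not change. The medullary markers (10 probes) summed to 865 to 10900 in T-ALLs, against 25100 to 30300 in thymi, and the cortical markers to 651 to 3950, against 14100 to 15300. Psmb11, Prss16 and Dll4, which mark the cortical epithelium, were detected in 0 T-ALLs and were lower than in thymus. Of the medullary markers, Aire was detected in 5 of 9 T-ALLs. Aire (-2.27, limma, adjusted p = 0.121), Cldn4 (-1.60, 0.315) and Cldn3 (-0.89, 0.504) did not pass with 9 T-ALLs. The dendritic and class II markers summed to 3030 to 9880 in T-ALLs, against 65000 to 72700 in thymi. Of 8 T-lineage markers, 3 were lower with 9 T-ALLs and 6 with 7, and none was higher. Fewer of these other cells in the piece and lower levels in the leukemic cells cannot be told apart for Ubd, Psmb9, Psmb10, Tap1 and the class I genes.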

How the data were processed

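RNA of 53 mouse tissue samples was hybridized to Illumina bead arrays. The deposited probe table gives an intensity for each probe, with values below 0 on every array, so background had been subtracted, and beside it a detection score given by the authors as a fraction equal to 1 minus the detection p-value. The authors also deposited log2 values, for which the submitters' notes name limma. The software behind the intensities is not given in the sources used here. Liver tumor 12 has only these log2 values, and 2 columns (1 array) that no label names were not used. The rank correlation of intensity with the authors' log2 value was 1 on every array except T-ALL 7 (0.786).

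Intensities were corrected and quantile normalized with neqc (offset 16) in limma 3.58.1 (R 4.3.3, statmod 1.5.0), within each tissue and over both tissues. Of 45281 probes, 34885 named 1 gene symbol, 18 named several, and the platform annotation lacked 10378; 99.78% of symbols matched a GRCm38.p6 gene table. The probe with the highest mean intensity was used for each gene and kept where its detection p-value was under 0.05 on 5 or more of a tissue's arrays. Group means were fitted with lmFit and eBayes (trend, robust), with the mouse as a random block in liver (correlation 0.184) and over both tissues (0.498), and p-values were adjusted by Benjamini and Hochberg over all genes kept. All tests are two-sided. Liver tumor means weight the genotypes by their numbers of tumors. Correlations were tested by permutation (100000 resamples; all orders in T-ALL) in Python 3.11.15 with numpy 2.4.6. The scripts were tested on simulated data. Since nothing says that the healthy samples came from separate animals, p-values measure the spread between these samples, and the number of arrays and their signal over background limit the precision.

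The genes and lists were chosen with earlier results of these data known. Named are the 10 genes, the 5 genes with the highest r with Ubd, and, of 9 lists of related genes, up to 4 called genes with the largest change and genes named for their role. The genes of these lists and of 11 marker lists that had no kept probe are not analysed here. Alternatives were other scalings, offsets, filters, probes, blocks and left-out samples.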

Additional observations from a re-analysis of the deposited data

Results flagged for a closer look

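Single samples stood apart from the rest of their group in 13 of 40 combinations of gene and group of 4 to 10 samples, by the gap to the nearest sample relative to the range. Chance gives about 1 in 20 for independent combinations, but these share arrays. All but that of healthy thymus 4 came from healthy liver 5, healthy liver 1 and T-ALL 5. Healthy liver 5 had the highest Ubd, 8.38 (others 5.07 to 6.81), and the lowest Psmb8, 6.53 (9.55 to 11.28), Tapbp, 5.16 (8.15 to 9.6), and H2-D1, 11.14 (12.65 to 13.34). Healthy liver 1 had the lowest Psmb9, 6.88 (8.69 to 9.97), Tap1, 6.18 (7.12 to 8.09), and H2-K1, 6.61 (8.77 to 10.12). T-ALL 5, the nearly blank array, had the lowest Psmb9, 5.17 (9.43 to 10.85), Psmb10, 4.48 (10.60 to 12.20), Tap2, 4.69 (12.36 to 13.16), B2m, 4.57 (12.50 to 13.80), and H2-D1, 4.55 (10.72 to 12.63). Healthy thymus 4 had the lowest H2-K1, 8.41 (8.79 to 8.90).

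The change in liver tumors minus the change in T-ALL passed the test of the difference for 5 genes: Psmb9 (2.47), Psmb10 (2.10), Tap1 (2.22), H2-K1 (2.23) and H2-D1 (2.77).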

How the results depend on the processing

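The limits lie in the chips and in single arrays. In liver, where 3 of 9 genes were called, 0 were called with chip as a fixed effect (limma, 0 at an unadjusted p under 0.05). That setting called only 7 of all 11517 genes higher and 2 lower. Without the tumors on chips B and C, 0 were called (3 at an unadjusted p under 0.05), beside 1180 of all genes higher and 944 lower. Without healthy livers 1 and 5, 1 (Psmb8) was called, beside 2310 and 2275. Leaving out single mice or healthy livers gave 2 to 3. In T-ALL, where 1 was called, 2 were called with median scaling, beside 251 of all 10275 genes higher and 1581 lower. An offset of 50 gave 2 (151 and 996), and the authors' log2 values gave 3 (88 and 1049). With array weights 7 were called, beside 2437 higher and 3057 lower. Without T-ALL 4 and 5 the count was 6, beside 2086 and 2652. Leaving out single samples gave 1 to 6, the 6 without T-ALL 5 (1098 and 1939). Between the Trp53 genotypes 0 were called without any single mouse, and for the difference between the tissues 4 to 5 without any single thymus. The order of the 5 groups was kept for 6 of 10 genes with median scaling, 6 with the authors' log2 values and 5 without T-ALL 4 and 5. The settings without chips B and C, without healthy livers 1 and 5, without single thymi, centred within chips and without T-ALL 4 and 5 for the order of groups were chosen after seeing the data. The correlations with Ubd passed by r for 7 to 9 of 9 genes in liver and by rho for 0 to 7 (5 over the 20 mice, 0 without chips B and C), and in T-ALL for 0 of 9 by either in every alternative.

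Signs that turned belonged to small differences. H2-K1 in liver was 0.32 with median scaling, 0.03 with chip as a random block and 0.56 as a fixed effect, and -0.30 to 0.09 without single samples; Psmb10 in liver was -0.16 with chip fixed. Between p53 f/f and p53 f/+ tumors, B2m was 0.24 (median scaling) and 0.01 (chip fixed), H2-D1 was 0.25 (median scaling), 0.01 (array weights) and 0.06 (chip fixed), and H2-K1 was -0.14 without chips B and C. In T-ALL, Psmb8 was 0.69 with array weights, 0.55 without T-ALL 4 and 5 and -0.30 to 0.29 without single samples; Tap2 was 0.12, 0.08 and -0.92 to 0.13 in the same settings; Tapbp was -0.34 (median scaling), -0.01 (authors' values), -0.03 (without T-ALL 4 and 5) and -0.10 to 0.16 (single samples). The correlation of B2m with Ubd in T-ALL was -0.05 with median scaling. The cause of these changes was not tested. Median scaling moved the median difference of all genes to 0.229 in liver, 0.301 between the genotypes, -0.652 in T-ALL and 0.758 between the tissues, and the split of calls to 2736 higher and 438 lower in liver (1693 and 1642 with quantiles), 61 and 5 between the genotypes (15 and 38) and 3137 and 282 between the tissues (1687 and 649).

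The healthy samples were wild-type and the tumors were not, so same-numbered samples came from different mice. The deviations of same-numbered samples correlated at -0.078 to 0.159 in liver and -0.078 to 0.141 in thymus. Differently numbered samples were not compared, so these values do not decide whether the numbers pair the groups in another way. With the number as a replicate block (p53 f/f tumors and healthy livers 1 to 10), 4 genes were called in liver (Psmb8 1.93, Psmb9 1.29, Tap2 1.12, H2-D1 0.79). H2-K1 was 0.83 there and not called, and 1581 of all genes were called higher and 1281 lower. In T-ALL 1 was called, beside 45 of all genes higher and 542 lower.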
